A study of Mus musculus with 35 samples.

Results

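Hearts of mice lacking Irs2 in cardiomyocytes were compared with control hearts on day 3 of transaortic constriction (TAC), in which a suture narrows the aortic arch and raises the pressure against which the left ventricle ejects. The libraries were taken by their genotype and operation: 6 IRS2KO TAC and 5 WT TAC libraries, 11 of the 35 in the series, with all measured genes. IRS2KO mice carried a floxed Irs2 gene together with alphaMHC-Cre, a recombinase driven by a promoter active in cardiac muscle cells. WT mice carried the floxed Irs2 gene with no Cre named, so both genotypes share the floxed allele, and no group carried Cre alone. The mice were of a mixed C57Bl/6/FVB strain and 6 weeks old at surgery, and messenger RNA of the apex was sequenced. Sham-operated IRS2KO and WT hearts (6 libraries each) stand beside them for reference. The IRS1KO groups of the series entered the model to estimate the spread, and the mean level by which genes were filtered, and were not compared. Whether every library is from its own mouse is not stated in the labels, so a p-value here measures no more than the spread among libraries.

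Irs2 encodes insulin receptor substrate 2, an adaptor that the activated insulin and IGF1 receptors phosphorylate on tyrosine and that then recruits PI3 kinase. PI3 kinase activates AKT, which keeps the forkhead (FoxO) transcription factors out of the nucleus and promotes glucose uptake. The adult heart burns mostly fatty acids, and PPAR transcription factors drive the genes of fatty acid uptake and oxidation. Under pressure overload the heart lowers those genes and turns on a fetal programme.

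Levels are normalized counts, that is, gene counts divided by a size factor of the library, and they are not corrected for gene length. The 11 libraries held 12126642 to 14188180 reads assigned to genes, and 19269 to 20699 genes were detected in each. The libraries of each TAC group differed among themselves in how far they stood from sham. The root mean square log2 distance from the mean sham library of the same genotype was 0.70, 1.19, 1.09, 0.55, 1.06 and 1.21 in IRS2KO TAC replicates 1 to 6, and 1.02, 0.54, 1.09, 0.95 and 0.89 in WT TAC replicates 1, 2, 3, 5 and 6. The groups overlapped in part, with IRS2KO TAC replicates 2 and 6 above every WT TAC library (two-sided exact permutation test of the means, p = 0.693). IRS2KO TAC replicates 1 and 4 and WT TAC replicate 2 stood nearest to sham, and results are given with and without them where it matters. The share of reads from the mitochondrial genome was 21.1% ± 4.91 in IRS2KO TAC (SD, n = 6) and 23.4% ± 2.19 in WT TAC libraries (n = 5; exact permutation p = 0.351).

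No gene passed the threshold of an adjusted p of 0.05 between IRS2KO and WT after TAC, among the 13695 genes tested (0.0%, limma). The smallest adjusted p was 0.509. At an unadjusted p under 0.05 there were 931 genes, which is 6.8% of those tested: 377 with a higher estimate in IRS2KO (2.75%) and 554 with a lower one (4.05%). In a model of the IRS2KO TAC and WT TAC libraries alone, which takes no spread from the less variable sham groups, 0 were called and 334 had an unadjusted p under 0.05 (2.44%). EdgeR, on the same 13695 genes, called 0 (965 unadjusted). DESeq2 was fitted to all 27012 deposited genes with no filter on their level, and called 0 (1138 unadjusted). Its unadjusted count is therefore not on the same set of genes as the others. A fold change here is a fitted log2 difference, IRS2KO minus WT, of log2(value + 1), and its median standard error was 0.13. The 95% interval lay within a 2-fold change either way for 12654 genes (92.4%). The median SD between libraries of a group was 0.27 on the log2 scale in IRS2KO TAC and 0.23 in WT TAC hearts, against 0.16 in IRS2KO sham and 0.15 in WT sham hearts. All statements below on single genes after TAC are therefore of estimates that did not pass the adjusted threshold, unless a called change is named.

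Without the 3 TAC libraries nearest to sham, 405 genes were called between the genotypes (2.96%), 118 higher (0.862%) and 287 lower (2.1%) in IRS2KO. Those libraries were set aside because of a measure of the TAC response itself, after the data had been seen. The 4 IRS2KO libraries that remained stood at 1.06 to 1.21 from sham and the 4 WT libraries at 0.89 to 1.09, so the remaining IRS2KO libraries stood on average farther from sham. The part of that distance in the 405 calls was not tested.

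Irs2, the gene the Cre was meant to delete (chromosome 8, 10984681 to 11008458 in GRCm38), had normalized counts of 78.6, 195.7, 106.9, 91.6, 128.4 and 122.0 in IRS2KO TAC replicates 1 to 6. The WT TAC libraries had 287.4, 252.4, 129.8, 222.7 and 302.9. The IRS2KO values lay below 4 of the 5 WT values, and WT TAC replicate 3 lay among them. The mean was 50.4% of WT, with a log2 fold change of -0.99 (SE 0.36, limma adjusted p = 0.695). Tested alone, the difference had a two-sided exact permutation p of 0.00866, where 0.00433 is the smallest that 462 splits can give. In sham hearts Irs2 stood at 123.4 ± 14.4 in IRS2KO and 217.1 ± 174.4 in WT (SD, n = 6 each), and the WT mean held 1 library at 564.4. Reads of the floxed gene outside the deleted stretch and reads from cells without Cre still count here, and the labels do not name the stretch that the loxP sites flank. Irs1, the related adaptor, stood at 237.0 ± 78.1 in IRS2KO TAC and 180.7 ± 40.6 in WT TAC hearts (exact permutation p = 0.204). In bulk tissue, fewer cells of a type and less RNA per cell cannot be told apart, here and in every result that follows.

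Pdk4, the kinase that phosphorylates and inactivates pyruvate dehydrogenase and so spares glucose while fatty acids burn, had the largest estimated difference of the 5 genes tested singly by permutation. It is a textbook target of FoxO, PPAR and the glucocorticoid receptor. The IRS2KO TAC libraries held 6851, 3284, 5674, 9739, 4291 and 4715 normalized counts. Those of WT TAC hearts held 21688, 24979, 5925, 18262 and 21272. Of the WT libraries 4 lay well above every IRS2KO library, and WT TAC replicate 3 lay inside the IRS2KO range. The IRS2KO mean was 31.3% of the WT mean, a log2 fold change of -1.61 (SE 0.39, unadjusted 95% interval -2.41 to -0.81, limma adjusted p = 0.509, exact permutation p = 0.013 unadjusted).

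In sham hearts Pdk4 stood the other way, at 32820 ± 5530 in IRS2KO and 22116 ± 7277 in WT hearts. That log2 difference was 0.64 (SE 0.38, limma adjusted p = 1; exact permutation p = 0.00866, where 0.00217 is the smallest 924 splits can give). Against sham of the same genotype, Pdk4 fell to 17.5% in IRS2KO TAC hearts (log2 fold change -2.58, limma adjusted p = 8.7e-07), and stood at 83.3% in WT TAC hearts (-0.33, adjusted p = 0.499). The difference between those TAC responses was -2.26 (SE 0.54, unadjusted 95% interval -3.36 to -1.15) and did not pass the threshold over all genes (limma adjusted p = 0.685). Without the 3 TAC libraries nearest to sham, the genotype difference after TAC was -1.76 and passed it (limma adjusted p = 0.0386). Those 3 were set aside by their TAC response after the data had been seen, so this p-value depends on that choice and is not a separate test.

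**Figure D1:**
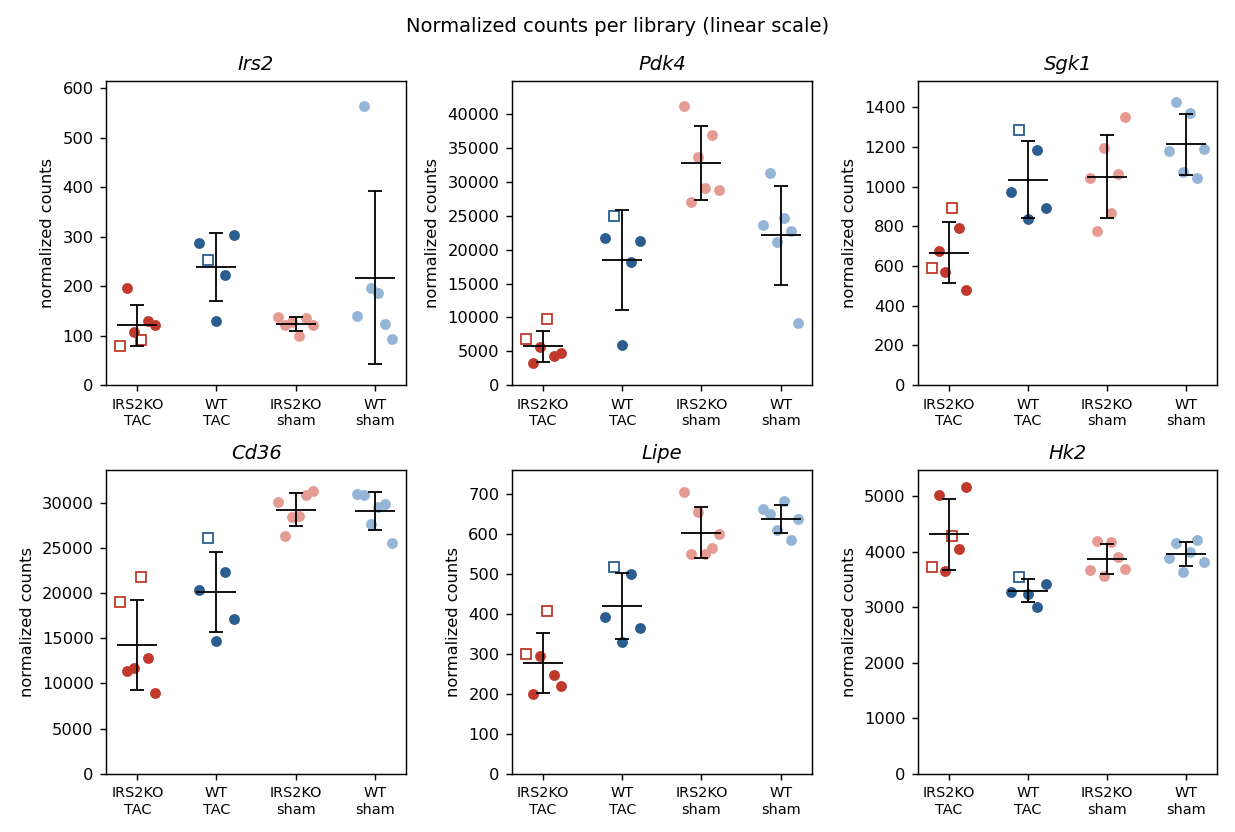
Normalized counts (linear axis from 0) of 6 genes in each library of 4 groups, in the order IRS2KO TAC, WT TAC, IRS2KO sham and WT sham. Points are libraries, long bars are group means and whiskers are 1 SD, and open squares are the 3 TAC libraries nearest to sham. The Pdk4 panel has 4 WT TAC libraries between 18262 and 24979 and all IRS2KO TAC libraries at 9739 or below, while Hk2 has every IRS2KO TAC library above every WT TAC library.

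Sgk1, a serum- and glucocorticoid-regulated kinase that acts beside AKT downstream of PI3 kinase, had 588, 678, 571, 895, 794 and 477 normalized counts in IRS2KO TAC libraries. In WT TAC libraries it had 974, 1288, 836, 1187 and 894. The groups met at the edge, where IRS2KO TAC replicate 4 lay just above WT TAC replicate 6 and above replicate 3. The log2 fold change was -0.65 (SE 0.17, limma adjusted p = 0.509, exact permutation p = 0.013 unadjusted). In sham hearts Sgk1 stood at 1051 ± 210 in IRS2KO and 1214 ± 155 in WT (SD, n = 6 each), a log2 difference of -0.22. Sgk1 fell with TAC in IRS2KO hearts to 63.5% of sham (limma adjusted p = 0.00078), against 85.3% in WT hearts (adjusted p = 0.239), and the difference of those responses did not pass (-0.42, SE 0.24, limma adjusted p = 0.951).

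Cd36, the fatty acid translocase that brings long-chain fatty acids into the cardiomyocyte, had 19027, 11386, 11701, 21725, 12844 and 8973 normalized counts in IRS2KO TAC libraries. Values of the WT TAC libraries were 20352, 26141, 14741, 22316 and 17149. The IRS2KO libraries split into 2 high ones, replicates 1 and 4, which are the IRS2KO libraries nearest to sham, and 4 that lay below every WT library. The log2 fold change was -0.54 (SE 0.16, limma adjusted p = 0.562, exact permutation p = 0.0649 unadjusted). Without the 3 TAC libraries nearest to sham it was -0.73 (limma adjusted p = 0.009). Those 3 were set aside by their TAC response after the data had been seen, and they include the 2 high IRS2KO libraries. This p-value therefore depends on that choice and is not a separate test. In sham hearts the genotypes stood at 29212 ± 1843 in IRS2KO and 29067 ± 2089 in WT, a log2 difference of 0.01 with a 95% interval of -0.31 to 0.33. Cd36 fell with TAC in both genotypes, to 48.9% of sham in IRS2KO (limma adjusted p = 5.9e-07) and to 69.3% in WT hearts (adjusted p = 0.00522). Irs2, Irs1, Pdk4, Sgk1 and Cd36 were the 5 genes tested singly by permutation, with earlier results of these data known, and those p-values are not adjusted.

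The upstream sequences of Pdk4, Cd36 and Sgk1 are shown because the genes are known targets of factors with well-defined DNA motifs. The windows run from 250 bases before to 50 after a RefSeq start (GRCm38.p6), 5′ to 3′ on the gene's strand, with motif matches in capitals.
Pdk4, chr6:5496229-5496528, minus strand: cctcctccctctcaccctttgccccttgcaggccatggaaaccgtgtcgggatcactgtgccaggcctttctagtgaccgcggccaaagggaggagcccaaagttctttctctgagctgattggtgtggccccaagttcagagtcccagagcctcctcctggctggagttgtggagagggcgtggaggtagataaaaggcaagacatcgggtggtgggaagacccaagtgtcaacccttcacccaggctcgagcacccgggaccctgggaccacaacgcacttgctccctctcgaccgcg
Cd36, chr5:17835847-17836146, minus strand: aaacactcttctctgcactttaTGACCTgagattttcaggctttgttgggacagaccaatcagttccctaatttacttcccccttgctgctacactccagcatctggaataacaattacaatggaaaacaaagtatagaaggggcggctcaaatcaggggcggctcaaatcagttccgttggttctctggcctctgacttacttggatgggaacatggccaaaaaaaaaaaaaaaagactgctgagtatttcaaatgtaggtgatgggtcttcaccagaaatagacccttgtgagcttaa
Sgk1, chr10:21993640-21993939, plus strand: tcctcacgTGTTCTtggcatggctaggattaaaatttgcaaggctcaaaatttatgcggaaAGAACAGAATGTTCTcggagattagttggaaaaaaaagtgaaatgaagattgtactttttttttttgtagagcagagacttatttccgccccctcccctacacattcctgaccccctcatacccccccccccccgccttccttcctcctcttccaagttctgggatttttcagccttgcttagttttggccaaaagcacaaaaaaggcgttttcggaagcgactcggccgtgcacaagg
The motifs searched on both strands were the forkhead core TGTTTAC, the PPAR element (the arm AGGTCA given 2 times in a row with 1 base between) and that arm alone, and the glucocorticoid element (AGAACA and TGTTCT with 3 bases between) and the arm TGTTCT alone. An arm can lie inside a whole element. The Pdk4 window held none of them, and the Cd36 window held 1 PPAR arm on the reverse strand, at position -228 from the start. The Sgk1 window was chosen for its match among 6 that RefSeq gives for this gene, and held a whole glucocorticoid element at position -189 from the start, and a separate arm at -242. Of the other 5 Sgk1 windows 2 held a glucocorticoid arm alone, 2 a PPAR arm alone and 1 none. The windows of Irs2 and Hk2 held no match and are not shown. Among 32851 windows of the same length, 3 held the whole glucocorticoid element (0.00913%), 6233 its arm (19.0%), 13 the whole PPAR element (0.0396%), 5340 its arm (16.3%) and 1199 the forkhead core (3.65%). These shares are per window, while the Sgk1 match was found among 6 windows. A match is a run of letters and not a measured binding site.

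Of the genes with an adequate level (the higher of the group means at 100 or above), the 10 with the smallest p in each direction were taken to describe the edge of the distribution, and none was called. Among those higher in estimate were Hk2, Cobl, Gne, Rnf157, Mea1, Myh10, Epb41l4a, Adgre5 and Lama4, and the log2 fold changes of the 10 ran from 0.26 to 0.45. Lower in estimate were Cd9, Pdk4, Fas, Sgk1, Mylip, Lipe, Sh2d3c, Cyyr1, Plgrkt and Nfkbia, with changes of -1.61 to -0.24. Of the 10 higher genes 7 had every IRS2KO TAC library above every WT TAC library. Of the 10 lower genes 0 were fully separate. The genes were taken by their p in these same libraries, so the separation is not a separate result. Over all genes, 31 were separate between the groups (0.226%), 23 above (0.168%) and 8 below (0.0584%). Whether that number exceeds what libraries without a genotype difference would give was not tested. Of the 20 genes 11 had the same sign in sham hearts, and by limma in the model of all 6 groups Cobl alone had an unadjusted p under 0.05 there.

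Hk2, the insulin-responsive hexokinase that phosphorylates glucose at the mitochondrial surface, had 3721, 5020, 3658, 4284, 4056 and 5161 normalized counts in IRS2KO TAC libraries. In WT TAC libraries the counts were 3280, 3554, 3234, 2998 and 3422. The groups did not overlap, with the lowest IRS2KO value at 3658 and the highest WT value at 3554. The log2 fold change was 0.38 (SE 0.09, limma adjusted p = 0.509), and the sham difference was -0.03. Hk2 fell to 83.4% of sham in WT TAC hearts (limma adjusted p = 0.0134), and stood at 112% of sham in IRS2KO TAC hearts (adjusted p = 0.124). Gne, the enzyme that starts sialic acid synthesis, was at 224.0 ± 8.06 in IRS2KO TAC and 186.5 ± 8.44 in WT TAC libraries, also without overlap. Myh10, which encodes non-muscle myosin IIB, stood at 1244 ± 177 in IRS2KO TAC and 949.6 ± 71.1 in WT TAC libraries, and it rose with TAC in both genotypes, to 216% of sham in IRS2KO and 164% in WT (limma adjusted p = 6.9e-11 and 7.5e-07). Slc8a1, the cardiac sodium-calcium exchanger, was likewise separate, at 3780 to 6404 in IRS2KO TAC and 2700 to 3527 in WT TAC libraries. Of its IRS2KO TAC libraries 1 stood at 6404 and the next at 4637. Hk2, Gne, Myh10 and Slc8a1 were named for a small p in these same libraries, so their lack of overlap is not separate evidence.

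Among the lower genes, Lipe, the hormone-sensitive lipase of triglyceride breakdown, had 299.8, 199.8, 294.8, 406.2, 246.6 and 218.5 normalized counts in IRS2KO TAC libraries. The WT TAC libraries had 393.3, 516.4, 329.0, 498.6 and 364.4. IRS2KO TAC replicate 4, 1 of the libraries nearest to sham, lay inside the WT range and the other 5 lay below it. Fas, the death receptor, stood at 107.3 ± 20.7 in IRS2KO TAC and 188.3 ± 53.4 in WT TAC hearts, and Nfkbia, the inhibitor of NF-kappaB that glucocorticoids induce, at 273.1 ± 41.0 in IRS2KO TAC and 452.4 ± 172.7 in WT TAC hearts. Cd9, a membrane tetraspanin, ran 358 to 466 in IRS2KO TAC and 430 to 774 in WT TAC libraries. It rose with TAC in both genotypes, to 123% of sham in IRS2KO and 201% in WT hearts (limma adjusted p = 0.026 and 9.9e-08). Of the 10 lower genes 9 fell with TAC in IRS2KO hearts and 6 fell in WT hearts, at an adjusted p under 0.05 in each case. Over all genes tested the shares that fell were 31.1% in IRS2KO and 26.6% in WT hearts. These TAC responses share the TAC libraries with the genotype comparison and are given side by side only.

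**Figure D2:**
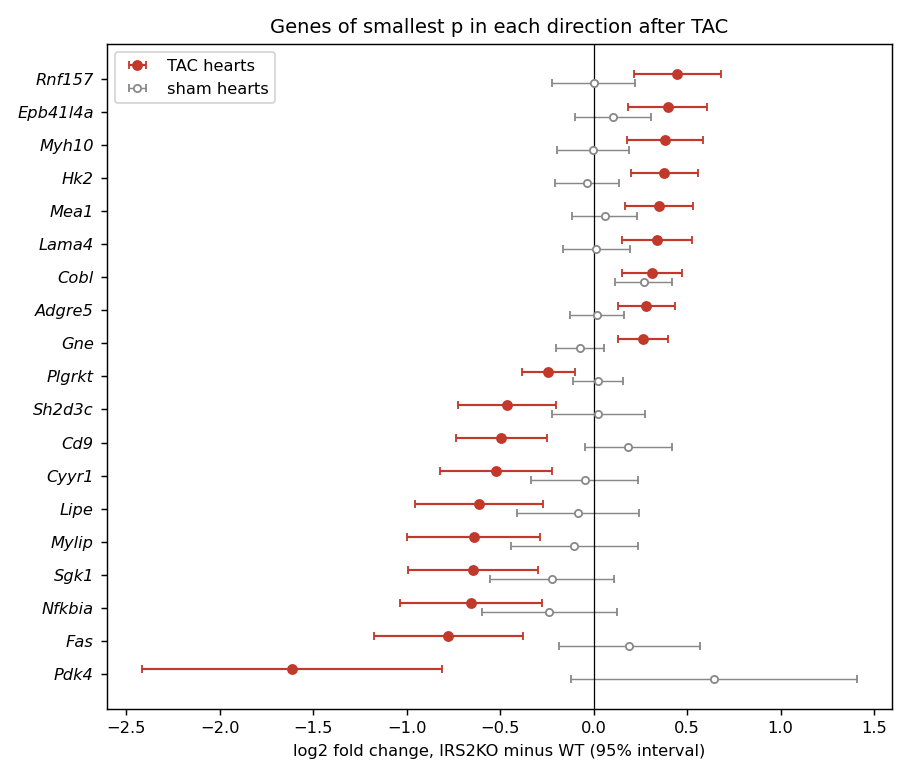
Log2 fold change, IRS2KO minus WT, with its unadjusted 95% interval, for 9 of the 10 higher genes and the 10 lower genes of smallest p after TAC. Filled points are TAC hearts and open points are sham hearts. The TAC intervals leave 0 because the genes were taken by their p, and the sham estimates lie on either side of 0, with Pdk4 at -1.61 after TAC and 0.64 in sham.

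Pathways were described by lists of genes, each set beside all genes, whose median log2 fold change after TAC was -0.00 and of which 4.05% were lower and 2.75% higher at an unadjusted p under 0.05. In sham hearts 1.67% of all genes were lower and 2.23% higher at such a p in the model of all 6 groups. No member of any list was called. Many genes stand in more than 1 list (Pdk4 is in 4), so the lists are not separate evidence. The members of a list were measured in the same libraries, so the number on 1 side of 0 does not count separate observations. The lists were chosen with earlier results of these data known, and the glucocorticoid list holds both Pdk4 and Sgk1.

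All 33 measured genes of the PPAR target list had a lower estimate in IRS2KO than in WT after TAC, with a median of -0.44, and 16 of the 33 had an unadjusted p under 0.05. That number was 7 in the model of the TAC libraries alone, and it ran from 9 (without IRS2KO TAC replicate 6) to 28 (without IRS2KO TAC replicate 4 or WT TAC replicate 3) when 1 library was left out. In sham hearts the median was -0.02 and 0 members had such a p in the model of all 6 groups. Ucp3, a mitochondrial carrier that follows fatty acid supply, had 427.9, 36.6, 304.8, 1067, 303.3 and 143.7 normalized counts in IRS2KO TAC libraries. Among WT TAC libraries the values were 575.6, 1416, 448.8, 747.8 and 930.7. IRS2KO TAC replicate 4 alone of its group lay above the WT minimum, and the log2 fold change was -1.62 (SE 0.53, limma adjusted p = 0.647). Plin2, which coats lipid droplets, stood at 926.8 ± 204.3 in IRS2KO TAC and 1437 ± 500 in WT TAC hearts. It stood at 101% of sham in IRS2KO TAC hearts (limma adjusted p = 0.945), and it rose to 165% of sham in WT hearts (adjusted p = 0.00326), with the difference of the responses not passing. Fabp4, a fatty acid binding protein of endothelium and fat, stood at 4912 ± 1869 in IRS2KO TAC and 6729 ± 1338 in WT TAC hearts. Acot1 and Acot2, thioesterases of near-identical sequence whose reads may be split between them, had estimates of -1.18 and -0.91. The nuclear receptor gene Pparg stood at 92.2 ± 19.6 in IRS2KO TAC and 134.7 ± 23.9 in WT TAC hearts, a log2 fold change of -0.55 (SE 0.17, limma adjusted p = 0.576). It is 1 of 24 genes in a list of PGC-1, ERR and PPAR regulators, whose median was -0.05. In that list 7 had a higher and 17 a lower estimate, with 0 higher and 3 lower at an unadjusted p under 0.05.

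Of 37 fatty acid uptake and oxidation genes 35 had a lower estimate (median -0.37), 12 lower and 1 higher at an unadjusted p under 0.05 (4 and 0 in the model of the TAC libraries alone). The members include Cd36 and Lpl, the lipoprotein lipase that frees fatty acids in the capillaries (-0.65). Cpt1b, the muscle form of the carnitine transferase that admits fatty acids to the mitochondrion, was at -0.26 without such a p. All 54 nuclear genes of oxidative phosphorylation had a lower estimate, within a narrow range of -0.45 to -0.17 (median -0.29), and 7 had an unadjusted p under 0.05. That number was 0 in the model of the TAC libraries alone and also without IRS2KO TAC replicate 2, 3 or 6 or WT TAC replicate 2 or 5, and it was 44 without IRS2KO TAC replicate 1 and 50 without IRS2KO TAC replicate 4 or WT TAC replicate 3. Uqcrb, a subunit of complex III, stood at 2490 ± 771 in IRS2KO TAC and 3086 ± 402.5 in WT TAC hearts. The 13 messenger RNAs of the mitochondrial genome had a median of -0.24, all lower. Under quantile normalization they stood at 8 lower and 4 higher. Both sets of respiratory genes fell with TAC in each genotype, 54 of 54 nuclear genes in IRS2KO and 51 of 54 in WT, and 13 of 13 mitochondrial mRNAs in IRS2KO and 12 of 13 in WT (limma adjusted p under 0.05). Of 32 genes of pyruvate dehydrogenase and the tricarboxylic acid cycle 30 had a lower estimate (median -0.23), with Pdk4 and the pyruvate carrier Mpc2 below an unadjusted p of 0.05. Of 26 triglyceride genes 23 were lower (median -0.31), among them Lipe and Plin2, and of 24 genes of branched-chain amino acid and ketone catabolism 23 were lower (median -0.24).

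These energy lists moved with the distance of the single libraries from sham. That distance was taken over all tested genes, the list members included, and most members fell with TAC. The list medians and the distance are therefore not independent measures. Within a library, the median of the PPAR targets relative to the WT sham mean ran from -2.03 (IRS2KO TAC replicate 6, the farthest from sham) to -0.50 (replicate 4) in IRS2KO TAC hearts, with a median library at -1.49. In WT TAC hearts it ran from -1.44 (replicate 3, the farthest from sham) to -0.35 (replicate 2), with a median library at -0.97. The groups overlapped, with 3 IRS2KO libraries below the lowest WT library. For nuclear oxidative phosphorylation the range was -1.39 to -0.27 in IRS2KO TAC and -1.04 to -0.24 in WT TAC libraries, from the same libraries. The part of this distance in the genotype difference was not tested beyond leaving libraries out. Without IRS2KO TAC replicate 6 the median was -0.17 for oxidative phosphorylation, -0.25 for fatty acid genes, -0.12 for mitochondrial mRNAs, -0.11 for the tricarboxylic acid cycle list, -0.20 for the triglyceride list and -0.12 for the branched-chain and ketone list. Without WT TAC replicate 2 it was -0.16 for mitochondrial mRNAs, -0.13 for the tricarboxylic acid cycle list, -0.16 for triglyceride and -0.15 for branched-chain and ketone genes, and -0.31 for the PPAR targets. Without IRS2KO TAC replicate 4 it was -0.37 for mitochondrial mRNAs and for branched-chain and ketone genes. Without the 3 libraries nearest to sham the median was -0.46 for oxidative phosphorylation and -0.61 for the PPAR targets, and 11 of 54 and 16 of 33 genes were called lower. These calls depend on a choice of libraries by their TAC response, made after the data had been seen.

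**Figure D3:**
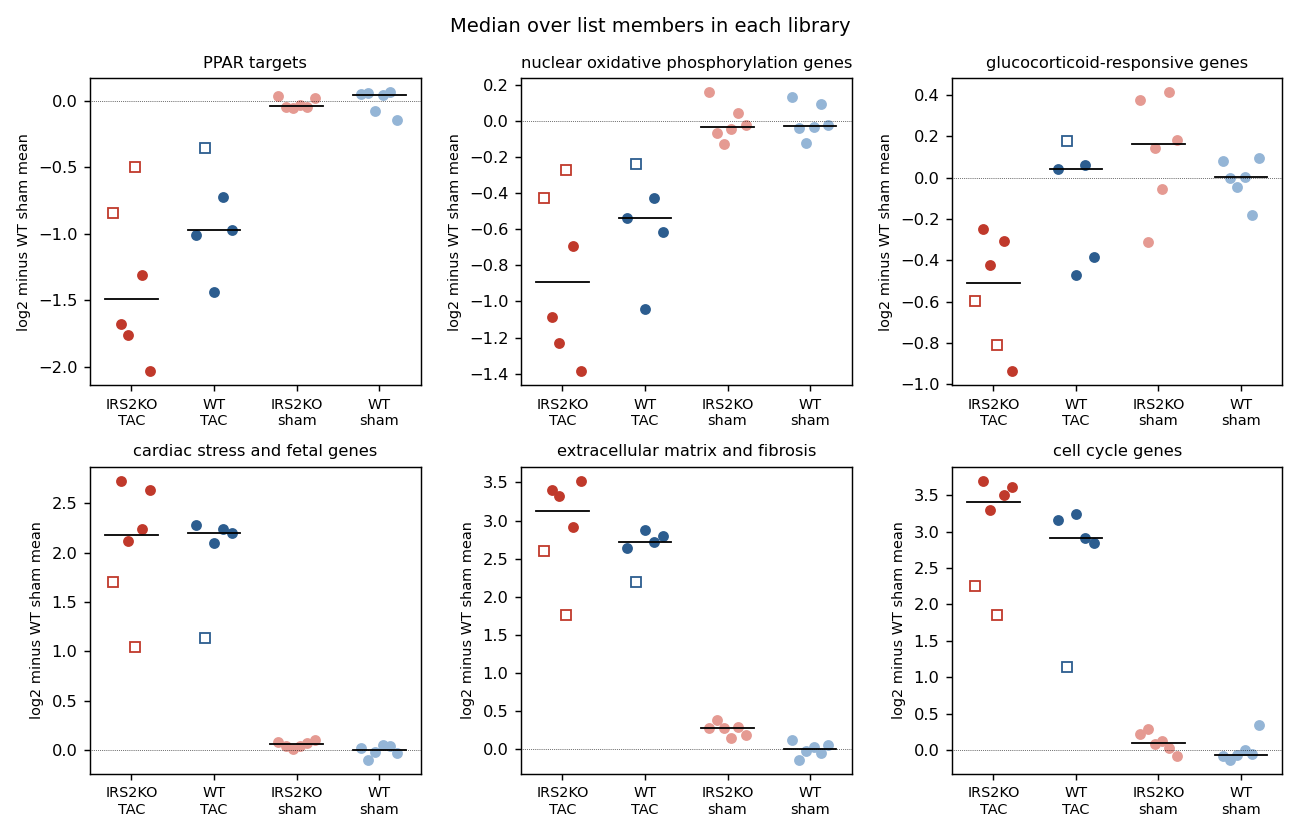
Median over the members of 6 gene lists in each library, as log2 difference from the WT sham mean of each gene. Points are libraries, bars are group medians, and open squares are the 3 TAC libraries nearest to sham. The PPAR and oxidative phosphorylation panels have the open squares at the top of each TAC group, and the glucocorticoid panel has 3 of the 5 WT TAC libraries near 0 and all IRS2KO TAC libraries below -0.24.

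All 24 glucocorticoid-responsive genes had a lower estimate in IRS2KO TAC than in WT TAC hearts, with the lowest median of the lists with at least 3 tested members (-0.57), and 12 of the 24 had an unadjusted p under 0.05 (7 in the model of the TAC libraries alone, and 8 without WT TAC replicate 5). In sham hearts the median stood the other way at 0.18, with 0 such members in the model of all 6 groups. That model takes spread from the more variable TAC groups, and a count from the sham libraries alone was not made for the lists. Pdk4, a member, was higher in IRS2KO than in WT sham hearts, with an exact permutation p of 0.00866, though limma did not call it. Sgk1, also a member, was lower there (log2 difference -0.22, exact permutation p = 0.139). By library the median of the list relative to the WT sham mean ran from -0.31 to 0.41 in IRS2KO sham and from -0.18 to 0.09 in WT sham hearts. Mt1 and Mt2 encode metallothioneins, small metal-binding proteins that glucocorticoids and zinc induce. Mt1 had 2342, 2255, 1856, 2204, 2626 and 986 normalized counts in IRS2KO TAC libraries. The WT TAC libraries had 5684, 3759, 2296, 4423 and 2237. WT TAC replicates 1, 2 and 5 lay above every IRS2KO library, and replicates 3 and 6 lay within their range. The log2 fold change of Mt1 was -0.82 (SE 0.25, limma adjusted p = 0.562), and that of Mt2 was -1.10. Klf15, a Kruppel-like factor that promotes fatty acid and amino acid use in the heart, stood at 232.9 ± 138.4 in IRS2KO TAC and 362.6 ± 174.2 in WT TAC hearts. Dusp1, a phosphatase of MAP kinases, stood at 463.2 ± 141.8 in IRS2KO TAC and 615.9 ± 152.1 in WT TAC hearts, and Fkbp5, a chaperone of the steroid receptor and a classic induced gene, had an estimate of -0.59 without such a p.

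By library the order on the glucocorticoid list was in part that of the distance from sham. Its median relative to WT sham ran from -0.94 (replicate 6) to -0.25 (replicate 2) in IRS2KO TAC libraries and from -0.47 (replicate 3) to 0.18 (replicate 2) in WT TAC libraries. The library farthest from sham was the lowest on this list in each group, and in WT TAC hearts the nearest was the highest. IRS2KO TAC replicates 1 and 4, which stood nearest to sham, were instead lower than replicates 2, 3 and 5. Its list median stayed between -0.70 and -0.46 when any 1 library was left out. Without the 3 libraries nearest to sham, a choice made after the data had been seen, it was -0.47, with 2 of 24 members called lower.

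Of the 28 FoxO targets 23 had a lower estimate in IRS2KO TAC than in WT TAC hearts (median -0.19), 7 lower and 1 higher at an unadjusted p under 0.05 (3 and 0 in the model of the TAC libraries alone). The median was -0.10 without IRS2KO TAC replicate 6 and -0.29 without IRS2KO TAC replicate 4, with 3 and 10 lower at such a p, and without WT TAC replicate 2 there were 2. In sham hearts the median was 0.11. Txnip, which restrains glucose uptake and thioredoxin, stood at 3964 ± 1764 in IRS2KO TAC and 6068 ± 2010 in WT TAC hearts (log2 fold change -0.68, SE 0.24, limma adjusted p = 0.674). The muscle ubiquitin ligase genes Fbxo32 and Trim63 had estimates of -0.46 and -0.12, and Sesn3, an inhibitor of mTORC1, was higher at 0.25. The antioxidant FoxO targets Sod2 and Cat had estimates of -0.27 and -0.21.

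Among 46 insulin and IGF signalling components 19 had a higher and 27 a lower estimate in IRS2KO TAC hearts, with a median of -0.03. With equal totals per library the split turned to 30 higher and 16 lower (median 0.04), and under quantile normalization it was 21 higher and 25 lower (median -0.01). At an unadjusted p under 0.05, Irs2, Sgk1 and the PI3 kinase regulatory subunit gene Pik3r1 (-0.56) were lower. The growth factor gene Igf1 (0.34), the receptor gene Igf2r (0.27), the adaptor Gab1 (0.21) and the lipid phosphatase gene Inppl1 (0.20) were higher. The receptors Insr and Igf1r had estimates of -0.20 and 0.04, Akt1 and Akt2 of -0.05 and -0.03, and the insulin-responsive glucose transporter Slc2a4 of -0.25, none with such a p. Of 33 genes of glucose uptake, glycolysis and glycogen 14 were higher and 19 lower (median -0.02). Hk2 and Hk1 were higher and the kinase genes Pfkfb1 and Pfkfb3, which set the level of fructose 2,6-bisphosphate, were lower at such a p.

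**Figure D4:**
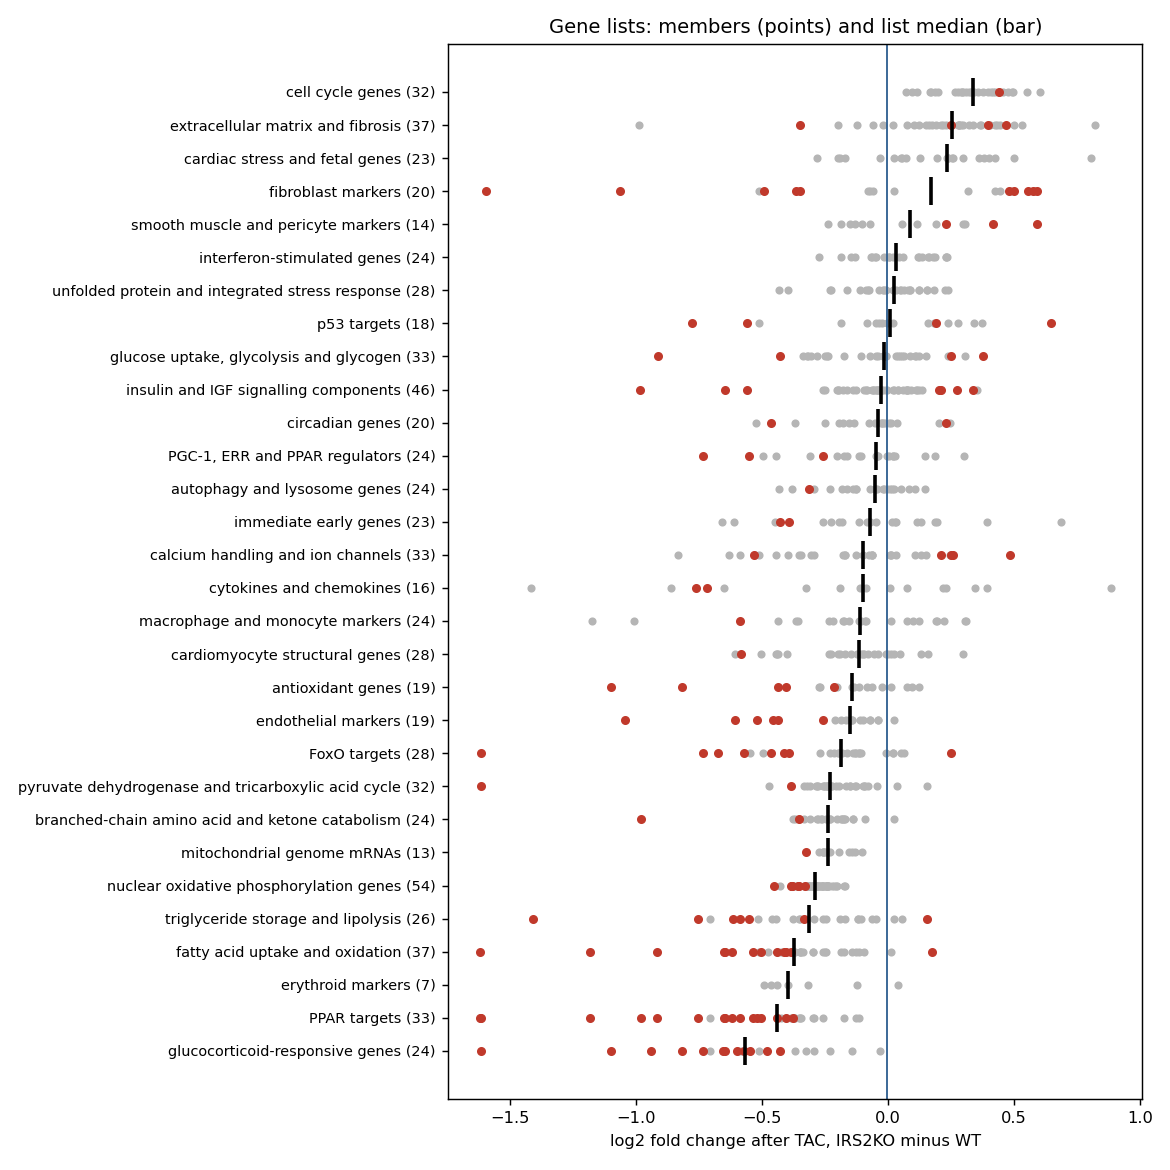
Log2 fold change after TAC, IRS2KO minus WT, of every tested member (points) and the list median (bars) for lists with more than 4 tested members, with the number tested in parentheses. Red points have an unadjusted p under 0.05, no point is called, and the blue line marks the median of all genes. All 33 PPAR targets, 24 glucocorticoid-responsive genes and 54 nuclear oxidative phosphorylation genes lie left of 0, and all 32 cell cycle genes lie right of it.

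Lists of genes that rise with TAC stood on either side. Of 37 extracellular matrix genes 31 had a higher estimate in IRS2KO TAC hearts (median 0.26), 3 higher and 1 lower at an unadjusted p under 0.05 (0 and 0 in the model of the TAC libraries alone). The median was 0.15 without WT TAC replicate 2 and 0.46 without IRS2KO TAC replicate 4, with 1 and 23 higher at such a p. The sham median was also above 0, at 0.23, with 8 higher and 0 lower at such a p. Col8a1, a short-chain collagen, stood at 4925 ± 1548 in IRS2KO TAC and 3479 ± 822 in WT TAC hearts, and Dcn, the small proteoglycan decorin of resident fibroblasts, at 4589 ± 1561 in IRS2KO TAC and 5640 ± 938 in WT TAC hearts. Of 23 cardiac stress genes 18 had a higher estimate (median 0.24). Without 1 library the median was 0.01 (IRS2KO TAC replicate 2), 0.04 (WT TAC replicate 2), 0.11 (WT TAC replicate 3), 0.12 (IRS2KO TAC replicate 6) or 0.39 (IRS2KO TAC replicate 4), and over all libraries 0 had an unadjusted p under 0.05. Nppa and Nppb, the natriuretic peptides, were at 0.36 and 0.23, and the beta and alpha myosin heavy chains Myh7 and Myh6 at -0.03 and -0.17. All 32 cell cycle genes had a higher estimate (median 0.34) and 1 of them, Ccnd1, had an unadjusted p under 0.05, a share near that of all genes (2.75%). That list rested on WT TAC replicate 2: without it the median was -0.03 and 18 of the 32 were lower. Without IRS2KO TAC replicate 4 the median was 0.56. The immune lists had medians on either side of 0, with few members at an unadjusted p under 0.05. Of 24 macrophage and monocyte markers, of which 19 rose with TAC in IRS2KO and 23 in WT hearts, 15 had a lower estimate (median -0.11). Of 16 cytokine and chemokine genes, of which 14 rose in IRS2KO and 15 in WT hearts, 9 had a lower estimate (median -0.10). Of 24 interferon-stimulated genes, of which 16 rose in IRS2KO and 10 in WT hearts, 15 had a higher and 9 a lower estimate (median 0.03). At an unadjusted p under 0.05 there were 1 lower macrophage marker, 2 lower cytokine genes and 0 interferon-stimulated genes, with 0 higher in each.

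Summed levels of endothelial, fibroblast, macrophage and cardiomyocyte genes overlapped between the groups. Over 19 endothelial markers the summed normalized counts were 18228 to 34911 in IRS2KO TAC and 24014 to 39509 in WT TAC libraries. Of the 19, 18 had a lower estimate (median -0.15), and 6 had an unadjusted p under 0.05, led by Rgcc at -1.04, with the defining genes Pecam1 and Cdh5 at -0.14 and -0.10. The endothelial median was -0.08 without IRS2KO TAC replicate 6 and -0.24 without IRS2KO TAC replicate 4, and 3 had such a p in the model of the TAC libraries alone. Over 20 fibroblast markers the sum was 42227 to 92303 in IRS2KO TAC and 45211 to 67239 in WT TAC libraries, with 5 members higher and 5 lower at an unadjusted p under 0.05. Acta2, the smooth muscle actin that activated fibroblasts also make, stood at 4418 ± 1030 in IRS2KO TAC and 2940 ± 789 in WT TAC hearts. Its estimate of 0.59 was the highest of that list, while the lowest reached -1.60. Among the 5 lower members were Scara5 (-1.06), Pi16 (-0.49), Ly6a (-0.37) and Dcn (-0.35). Besides Acta2, the 5 higher members were Meox1 (0.58), Thy1 (0.56), Mfap4 (0.50) and Cilp (0.48). The sums of 25 macrophage markers (6901 to 17653 in IRS2KO TAC and 8407 to 20805 in WT TAC libraries) and 28 cardiomyocyte structural genes (814190 to 1427200 in IRS2KO TAC and 870800 to 1421600 in WT TAC libraries) overlapped throughout. The 9 adipocyte markers summed to 268.1 to 513.0 in IRS2KO TAC and 448.8 to 666.1 in WT TAC libraries, and nearly all of that was Lipe and Pparg, the only members that passed the filter on low values. The other 7, among them the fat cell hormone gene Adipoq and the lipid droplet gene Plin1, summed to at most 1.034 normalized counts in any IRS2KO TAC library and at most 8.639 in any WT TAC library. In the cell type lists no marker was at 0 in all TAC libraries. Their part in the estimates of the metabolic lists was not tested.

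The sham hearts gave the same comparison without pressure overload. No gene passed the adjusted threshold there with limma in the model of all 6 groups (0.0%, smallest adjusted p 0.125), with 534 at an unadjusted p under 0.05 (3.9%). A limma model of the IRS2KO and WT sham libraries alone takes no spread from the more variable TAC groups. It called 31 genes, 23 higher and 8 lower in IRS2KO, and 1169 had an unadjusted p under 0.05 (8.54%). With library weights 23 were called. EdgeR called 0 genes (493 unadjusted), and DESeq2, fitted to all deposited genes without the filter, called 3 (637 unadjusted). Over the 13695 genes the TAC and the sham differences had a Pearson correlation of 0.01, as a description across genes, which are not independent. The comparisons share no library. In sham 93 genes had groups without overlap (0.679%), 60 with IRS2KO above (0.438%) and 33 with IRS2KO below (0.241%).

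**Figure D5:**
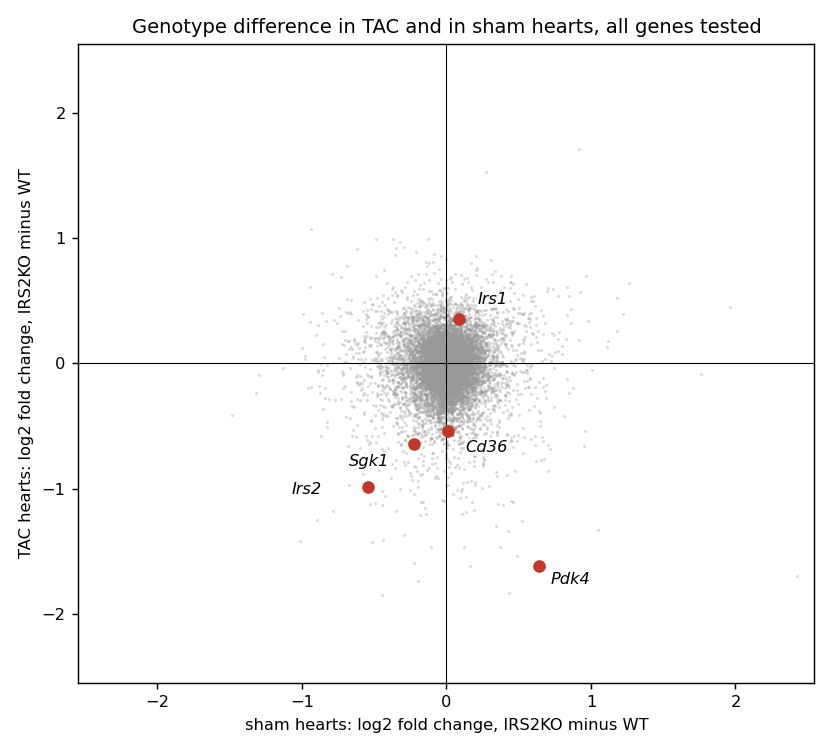
Each gene's log2 fold change, IRS2KO minus WT, in TAC hearts (vertical) against the same difference in sham hearts (horizontal), for the 13695 genes tested. Named points are Irs2, Irs1, Pdk4, Sgk1 and Cd36. The cloud has no slope (correlation 0.01), Irs2 is lower in both operations, and Pdk4 is lower after TAC and higher in sham.

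The test of the difference itself, the TAC response in IRS2KO minus that in WT, called 0 of 13695 genes with limma (0.0%, smallest adjusted p 0.408, 713 at an unadjusted p under 0.05, 5.21%, with 2.34% higher and 2.86% lower). EdgeR and DESeq2 called 0 as well (700 and 857 unadjusted, the DESeq2 count being over all deposited genes without the filter). The 5 genes with the smallest p there were Cep128, Cd9, Pdk4, Ano10 and Acta2. For Cep128, a centriole protein, and Ano10 the sham hearts held the larger difference: Cep128 stood at 84.3 ± 13.7 in IRS2KO TAC and 73.5 ± 8.03 in WT TAC hearts, and at 110.1 ± 15.4 in IRS2KO sham and 172.2 ± 25.4 in WT sham hearts. Acta2 rose with TAC in both genotypes, to 278% of sham in IRS2KO and 148% in WT (limma adjusted p = 6.7e-09 and 0.00635), with a difference of responses of 0.90 (SE 0.23, limma adjusted p = 0.723).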

How the data were processed

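Messenger RNA was sequenced from heart apex in 35 libraries of 6 groups, of which the 6 IRS2KO TAC and 5 WT TAC libraries were compared here, with the 12 sham libraries of both genotypes beside them. Groups were taken from the sample labels. RNA was extracted with mirVana reagents and made into stranded libraries with a TruSeq mRNA kit, per the labels' protocols. The authors deposited a normalized count signal for 27012 genes, and the submitters' processing notes name the build GRCm38, DESeq2 (no version), HTSeq 0.7.1 and HISAT2 2.0.6, without saying which did what. Gene names and coordinates came from a GENCODE annotation of that build, where 26904 of these genes were found.

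The deposited signal was a whole multiple of 1 step in 100% of values of the compared libraries, within a tolerance of 0.001, so whole reads could be recovered. The main test was limma 3.58.1 (R 4.3.3, trend and robust) on log2(value + 1), in 1 model of all 6 groups. It covered 13695 genes with a mean of at least 10 over the libraries of all groups. Benjamini-Hochberg adjustment was made within a comparison at a threshold of 0.05, and all tests were two-sided. Single values were compared by exact permutation. The log2(value + 1) scale understates changes of low genes.

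Settings varied were the pseudocount (0.5 or 5), the filter (none, or a mean of 50 or more), the scaling (equal totals, or quantile normalization), the groups fitted, library weights, a replicate block, the tool (edgeR 4.0.16 and DESeq2 1.42.0 on recovered reads), and each library left out in turn. DESeq2 was fitted to all deposited genes without the filter, and edgeR to the filtered genes. Steps were tested on simulated data. Named genes were Irs1, Irs2, Pdk4, Sgk1, Cd36, the 10 genes of smallest p in each direction (no gene being called), the 2 members of smallest p of each of 35 lists, and the 5 of smallest p in the TAC response difference, with predicted, Y-linked and Xist genes left out. Other list members are named for their role, and genes separate between groups for their lack of overlap, in both cases with values already seen. The comparison, lists and rules were chosen with earlier results of these data known. Results of a few genes are not reported here.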

Additional observations from a re-analysis of the deposited data

Results flagged for a closer look

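Of 320 groups of 4 to 10 libraries examined over the 80 named genes, 18 held a library that stood apart from the rest by Dixon's test. Chance flags about 1 in 20 groups. None of these values was weighed for a cause.

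In the TAC hearts there were 6. Mea1 stood at 316.3 normalized counts in IRS2KO TAC replicate 5, against at most 257.4 in the other libraries of its group. Slc8a1 stood at 6404 in IRS2KO TAC replicate 2, against at most 4637. Pfkfb1 stood at 100.8 in IRS2KO TAC replicate 4, against at most 39.28. In WT TAC replicate 2, Cspg4 stood at 591.3, against at least 815.6 in the others, and Klf4 at 736.2, against at most 464.8. S100a9, a neutrophil gene, stood at 128.4 in WT TAC replicate 1, against at most 19.41.

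In IRS2KO sham hearts, replicate 1 held Epb41l4a at 82.41, against at least 104.5 in the others, and Dusp1 at 960.6, against at most 692.1, and replicate 2 held S100a9 at 17.02, against at most 7.38. In WT sham hearts, Irs2 stood at 564.4 in replicate 2, against at most 195.0, with a mean of 147.6 in the other libraries, and Ano10 at 587.5 in the same library, against at most 479.7. WT sham replicate 1 held 4 such values: Cd9 at 347.1 against at most 295.5, Ccnd1 at 144.5 against at least 203.5, Nr1d1 at 936.3 against at most 662.9, and Ccl9 at 151.1 against at most 91.1. Ctsl stood at 1964 in WT sham replicate 3, against at least 2222. Dkk3 stood at 95.14 in WT sham replicate 5, against at most 53.66, and Mt2 at 72.69 in WT sham replicate 6, against at most 39.42.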

How the results depend on the processing

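The count of genes called after TAC was 0 under both pseudocounts, a mean of at least 50, both scalings, fewer groups, library weights, edgeR and DESeq2, and 2 with no filter. At an unadjusted p under 0.05 there were 334 with the TAC groups of both genotypes alone and 2232 with library weights, against 931. Leaving out 1 library gave 0 to 1 calls (1 without WT TAC replicate 2, a predicted pseudogene, Rbpj-ps3), and 495 (without IRS2KO TAC replicate 6) to 2337 (without IRS2KO TAC replicate 4) at an unadjusted p under 0.05. Without the 3 TAC libraries nearest to sham, chosen after seeing the data, there were 405 calls, and 4 in the TAC response difference, which otherwise had 0 throughout. In sham there were 1 with no filter, 31 with the contrast's groups alone, 23 with library weights, 3 by DESeq2 and 0 to 1 on leaving out a library (1 without WT sham replicate 6), and 0 otherwise. The cause was not tested.

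With the replicate block 0 genes were called in each comparison (1270, 648 and 918 unadjusted after TAC, in sham and in the difference). Same-numbered TAC libraries correlated at -0.39, -0.60, 0.55, 0.42 and 0.15 in their deviations, and same-numbered sham libraries at 0.025 to 0.25. Not every library correlated best with its own number in either, and the numbers were not taken to pair them. Sham libraries of unlike number correlated at -0.22 to 0.16, and whether the numbers mark a shared batch was not tested. With the block, 33 nuclear oxidative phosphorylation genes, 21 PPAR targets and 11 glucocorticoid-responsive genes were lower after TAC at an unadjusted p under 0.05. Without it the numbers were 7, 16 and 12.

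Of 1835 values of the 80 named genes under the alternatives, 1799 kept sign and side of the threshold, 28 passed it (all without the 3 libraries nearest to sham), and 8 changed sign, in 4 genes that were far from the threshold. Csf3r stood at 0.11 with library weights, 0.23 without the 3 libraries, and -0.43 to 0.094 on leaving out 1. The range on leaving out 1 was -0.009 to 0.59 for Ifi44, -0.023 to 0.44 for Blk and -0.99 to 0.38 for S100a9. Over the alternatives the adjusted p of Pdk4 was 0.0846 to 1.00, of Sgk1 0.0846 to 1.00 and of Cd36 0.0651 to 1.00, apart from the 3-library alternative.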
